A study of Rattus norvegicus with 30 samples.

Results

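The 10 genes described here lie beside the amylin gene (Iapp) on rat chromosome 4. They are Slco1c1, Pyroxd1, Recql, Golt1b, Ldhb, Kcnj8, Abcc9, Cmas, St8sia1 and Etnk1, and they were taken by gene symbol from the 17134 genes of a brain RNA-seq table. All 10 were found and passed the filter on low values. In the order of RefSeq gene entries on assembly GRCr8, Slco1c1 is 11 entries before Iapp, and the other genes follow it, Pyroxd1 being 2, Recql 3, Golt1b 4, Ldhb 7, Kcnj8 8, Abcc9 9, Cmas 10, St8sia1 12 and Etnk1 15 entries after it. Brain RNA of 30 male rats on a normal diet was sequenced, 10 wild-type rats (WT), 10 HIP rats and 10 amylin knockout rats (AKO). HIP rats express human amylin from a transgene in pancreatic β-cells and are 15 to 16 months old, as are the WT rats, while the age of the sequenced AKO rats is not given in the sources used here. How the knockout was made is also not given, and Iapp itself is not analysed here, so the knockout label was not checked against the transcript. The tissue is frontal cortex in the sample labels and cerebral cortex or hippocampus elsewhere in the study. The comparisons ask whether genes linked to the amylin locus differ in rats without amylin, which could carry another haplotype of this stretch of chromosome as well as the knockout, and in HIP rats.

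The neighbours of amylin do varied work, though some of them act in pairs. Kcnj8 and Abcc9 encode the pore subunit and the sulfonylurea receptor of the ATP-sensitive potassium channel of vascular mural cells, and Slco1c1 encodes a transporter that carries thyroxine across the blood-brain barrier. Ldhb encodes the heart-type subunit of lactate dehydrogenase. Cmas activates sialic acid and St8sia1 uses the product to make the ganglioside GD3, while Etnk1 starts the synthesis of phosphatidylethanolamine. Recql encodes a DNA helicase, Golt1b a Golgi transport protein, and Pyroxd1 an oxidoreductase that acts on pyridine nucleotides. A knockout made in embryonic stem cells or by crossing can keep a block of linked alleles around its target, so that a change in a neighbour may belong to the knockout or to the block.

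In RefSeq, Recql and Golt1b are divergent neighbours whose starts lie 287 bases apart, and the 250 bases before each start overlap by 214 bases. Kcnj8 and Abcc9 are adjacent and on the same strand. These 4 upstream windows are printed because they belong to the pair with a shared upstream stretch and to the pair of channel subunits whose levels are compared below. The sequences are from RefSeq on GRCr8, 5′ to 3′ on the strand of the gene, with each CG dinucleotide in capitals.
Recql (chr4:177063839-177064088, - strand): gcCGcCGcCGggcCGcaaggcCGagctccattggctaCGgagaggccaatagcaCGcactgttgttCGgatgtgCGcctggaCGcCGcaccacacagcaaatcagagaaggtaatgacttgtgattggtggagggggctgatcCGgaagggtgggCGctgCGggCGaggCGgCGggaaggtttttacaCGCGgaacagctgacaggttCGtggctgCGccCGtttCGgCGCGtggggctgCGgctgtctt
Golt1b (chr4:177063875-177064124, + strand): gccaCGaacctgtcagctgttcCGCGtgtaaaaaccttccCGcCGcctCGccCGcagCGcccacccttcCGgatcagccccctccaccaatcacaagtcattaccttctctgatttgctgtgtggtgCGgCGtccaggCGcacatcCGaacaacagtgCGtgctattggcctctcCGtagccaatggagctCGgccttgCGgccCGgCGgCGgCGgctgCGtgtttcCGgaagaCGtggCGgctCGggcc
Kcnj8 (chr4:177246549-177246798, - strand): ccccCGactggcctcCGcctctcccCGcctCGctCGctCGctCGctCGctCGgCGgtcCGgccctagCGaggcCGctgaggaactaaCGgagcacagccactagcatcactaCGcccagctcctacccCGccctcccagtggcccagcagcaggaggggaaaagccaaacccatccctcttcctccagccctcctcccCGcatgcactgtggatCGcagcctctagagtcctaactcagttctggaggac
Abcc9 (chr4:177386349-177386598, - strand): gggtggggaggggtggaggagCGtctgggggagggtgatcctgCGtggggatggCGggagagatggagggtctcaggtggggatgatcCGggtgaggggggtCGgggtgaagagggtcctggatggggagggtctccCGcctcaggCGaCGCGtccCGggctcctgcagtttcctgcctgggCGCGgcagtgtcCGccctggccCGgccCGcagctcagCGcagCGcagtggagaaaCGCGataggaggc
The windows of Recql and Golt1b each hold 26 CG dinucleotides, that of Kcnj8 18 and that of Abcc9 19. Over all 33469 RefSeq windows of that length the median was 5 and the upper quartile 15, and these windows were not limited to genes of the RNA-seq table. Across the 9 genes with a window the median was 24, and the lowest counts were 9 in Pyroxd1 and 10 in Ldhb. The letters CCAAT, searched on both strands, were in 5 of the 9 windows, those of Ldhb, Cmas, Etnk1 and of Recql and Golt1b, which share most of their bases, and in 34.0% of all windows. The letters CCGCCC, searched on both strands, were in 5 of the 9 windows, those of Kcnj8, Abcc9, Cmas, St8sia1 and Etnk1, and in 30.5% of all windows. TATAAA was in none of the 9 windows and in 12.9% of all windows.

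The estimated depth was between 12.9 and 21.1 M (mega) reads on genes per WT library, between 13.7 and 16.7 M per HIP library and between 12.9 and 23.6 M per AKO library. Values are given as the normalized counts the authors deposited. A list of 10 cerebellum genes had a mean log2 level of 12.32 in WT rat 10RT43 and 9.35 in HIP rat 12RT23, against 4.20 to 4.95 in AKO rats, and the pineal genes Tph1 and Asmt stood at 19081 and 1166.5 normalized counts in HIP rat 10RT46. AKO rat 7AKO19 had 3445 normalized counts of the choroid plexus gene Ttr, against a median of 4.19 and a highest value of 14881 (10RT46) in the other rats. AKO rat 4KAH27 had 281 normalized counts of the acute phase gene Lcn2 (other rats 0 to 45.8) and 1061.5 of the cytokine signalling gene Socs3 (18.96 to 110). In AKO rat 6KAH98 the median correlation with the other 29 rats, across genes, was 0.936, the lowest after that of 10RT43, 0.852. On 9 neocortex genes 10RT43 had a mean log2 level of 6.53, against 9.61 to 10.37 in AKO rats. These 6 libraries enter every fit below unless stated, and fits without them were added after the data were seen. The other libraries also varied in regional markers. Their mean log2 level of 8 olfactory bulb genes was 3.65 to 9.47 in WT, 3.22 to 8.39 in HIP and 3.595 to 9.03 in AKO rats. By median correlation 6AKO35, which was kept, stood at 0.961, below 12RT23 at 0.969. In whole tissue, fewer cells of a type and less RNA per cell cannot be told apart.

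None of the 10 neighbours was called between WT, HIP and AKO rats. In AKO vs. WT rats, 0 of 10 had an adjusted p-value under 0.05 (limma, two-sided, Benjamini-Hochberg over all genes), against 0.0997% of the 17058 genes tested, and 0 of 10 had an unadjusted p-value under 0.05, against 9.34% of all genes. The smallest of the 10 unadjusted p-values was 0.144, for Cmas. The median log2 difference of the 10 was -0.07, and that of all genes was 0.0014. In HIP vs. WT rats 0 of 10 were called, as were 0% of 17085 genes, and 0 of 10 had an unadjusted p-value under 0.05, against 2.57% of all genes. In HIP vs. AKO rats 0 of 10 were called, against 0.17% of 17092 genes, and 0 of 10 were under 0.05 unadjusted, against 12.7%. The AKO and HIP comparisons share the 10 WT rats. In each comparison the values of all 10 genes overlapped between groups, and groups did not overlap in 0.0117% of genes in AKO vs. WT, 0% in HIP vs. WT and 0.00585% in HIP vs. AKO.

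**Figure D1:**
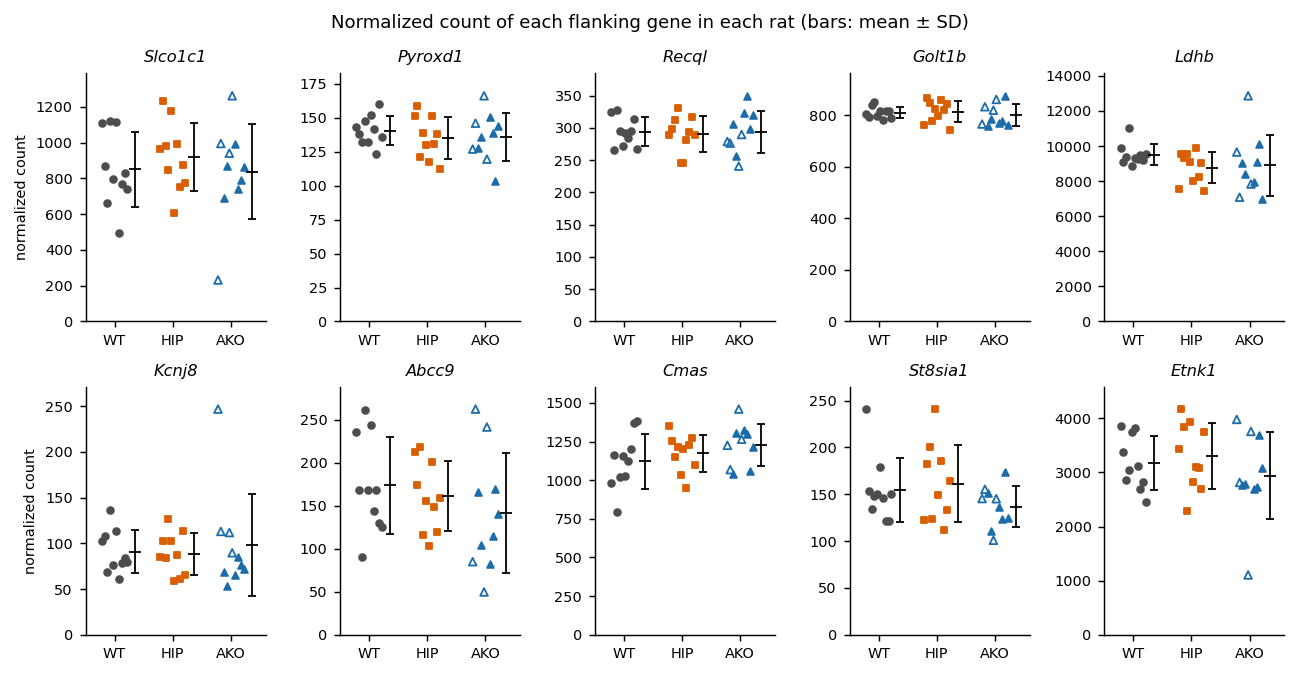
Normalized count of each of the 10 genes in each rat, by group; open triangles are the 4 AKO rats with KAH in their titles, filled triangles the other AKO rats, and bars the mean ± SD of 10 rats. The groups overlap for every gene, Golt1b lies in the narrowest band, and single AKO rats stand far from the rest in Slco1c1, Kcnj8 and Etnk1.

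Of the genes closest to Iapp in this set, Golt1b was the steadiest. Golt1b had 779 normalized counts in the lowest, 808.5 in the median and 849 in the highest WT rat, 743, 822 and 864 in HIP rats, and 757, 780.5 and 875 in AKO rats. The 3 bands overlap. The log2 difference was -0.02 in AKO vs. WT rats (standard error 0.05, p = 0.69), with a 95% interval of 0.923 to 1.06 for the fold, and in HIP vs. WT rats it was 0.0060 (0.949 to 1.06). The SD of Golt1b within groups was 0.067 on the log2 scale over all 30 rats, and 0.0206% of the 4845 genes within 2-fold of its mean level had a smaller one, the median SD of these genes being 0.224. Without the 6 libraries named above the SD was 0.062, and 0.166% of 4808 genes had a smaller one.

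Recql, which shares that upstream stretch, was at 266 to 328 normalized counts in WT rats (median 294), 246 to 331 in HIP rats (292) and 241 to 350 in AKO rats (294). The log2 difference in AKO vs. WT rats was -0.0037 (SE 0.07, p = 0.961), and the 95% interval of the fold was 0.897 to 1.11. In HIP vs. WT rats the interval was 0.90 to 1.08. Over the 30 rats the levels of Recql and Golt1b had a Pearson r of -0.03, a description over rats that share brain regions and library effects. Pyroxd1, closest to Iapp, had 123 to 160 normalized counts in WT rats (median 139.8), 112 to 158.4 in HIP rats (134.7) and 104 to 166 in AKO rats (137.2). Its fold was 0.962 in AKO vs. WT rats (95% interval 0.851 to 1.09) and 0.957 in HIP vs. WT rats (0.86 to 1.07). Its within-group SD, 0.158, was smaller than that of all but 1.83% of 3871 genes of like level, and all but 6.93% of 3865 genes without the 6 libraries.

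Ldhb had the smallest p-value of the 10 in HIP vs. WT rats. It was at 8837, 9361 and 11017 normalized counts in the lowest, median and highest WT rat, 7441, 9061 and 9883 in HIP rats, and 6976, 8716 and 12864 in AKO rats. Of the HIP rats and of the AKO rats, 3 of 10 were above the WT median. The log2 difference was -0.12 in HIP vs. WT rats (SE 0.06, p = 0.0558, adjusted p = 0.999, limma) and the fold interval was 0.841 to 1.002, and a permutation test over the same rats (100000 resamples, two-sided) gave p = 0.0372. In AKO vs. WT rats it was -0.12 (SE 0.09, p = 0.208), with a fold interval of 0.81 to 1.05. Without the 6 libraries the AKO vs. WT difference was -0.20 (p = 0.0169, adjusted p = 0.327, limma). The AKO range includes 6KAH98, the highest of all rats.

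The vascular neighbours had the largest within-group SDs on the log2 scale, 0.55 for Abcc9, 0.47 for Slco1c1 and 0.46 for Kcnj8. Of genes of like level, 83.89%, 88.49% and 66.12% had a smaller SD, against 82.28% for Etnk1. Over the 24 rats left without the libraries named above, the Kcnj8 SD was 0.345. The shares there were 88.38%, 92.24% and 63.72%, against 79.58% for Etnk1. Set against genes of like level, Kcnj8 thus varied less than Etnk1, which is not a vascular neighbour. Slco1c1 was at 495 to 1123 normalized counts in WT rats (median 812), 605 to 1229 in HIP rats (920) and 232 to 1261 in AKO rats (866), and the lowest AKO rat was 4KAH27, the next being at 691. Its fold was 0.943 in AKO vs. WT rats (95% interval 0.683 to 1.30, p = 0.709) and 1.09 in HIP vs. WT rats (0.886 to 1.34, p = 0.395). Kcnj8 was at 61.2 to 136.2 normalized counts in WT rats (median 81.6), 59.1 to 127 in HIP rats (86.3) and 53.1 to 247 in AKO rats (81.1). The highest AKO rat was again 4KAH27, at 247, and the second highest was at 113. The Kcnj8 fold was 1.01 in AKO vs. WT rats (0.741 to 1.38, p = 0.939) and 0.977 in HIP vs. WT rats (0.774 to 1.23, p = 0.834).

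Abcc9 had the widest interval. It was at 90.9, 168 and 262 normalized counts in the lowest, median and highest WT rat, 104, 157.6 and 218.5 in HIP rats and 49.8, 128 and 263 in AKO rats, where 7 of 10 rats were below the WT median. Its log2 difference was -0.38 in AKO vs. WT rats (SE 0.26, p = 0.157), a fold of 0.767 (0.526 to 1.12). In HIP vs. WT rats the fold was 0.944 (0.725 to 1.23, p = 0.655). Without the 6 libraries the AKO vs. WT log2 difference was -0.12 (p = 0.562). In a fit with sample-quality weights it was -0.54 (p = 0.0114, adjusted p = 0.104, limma), so the 2 ways of treating odd libraries moved it in opposite directions. The lowest AKO rat was 6KAH98.

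The sialic acid neighbours were not called in any comparison. Cmas was at 792, 1141 and 1383 normalized counts in the lowest, median and highest WT rat, 951, 1209 and 1348 in HIP rats and 1039, 1245.5 and 1460 in AKO rats. Its fold was 1.101 in AKO vs. WT rats (0.965 to 1.26) and 1.06 in HIP vs. WT rats (0.931 to 1.20, p = 0.382). The lowest WT rat for Cmas was 10RT43, the rat with the cerebellum genes. The AKO vs. WT log2 difference of Cmas, 0.14, was 0.085 without 10RT43 and 0.030 without the 6 libraries, and the HIP vs. WT difference, 0.08, was 0.029 without them. St8sia1 was at 122, 148.8 and 241 normalized counts in WT rats, 112, 156.5 and 241 in HIP rats and 101, 140.6 and 173 in AKO rats. Its fold was 0.891 in AKO vs. WT rats (0.748 to 1.06, p = 0.186) and 1.03 in HIP vs. WT rats (0.843 to 1.27). The AKO vs. WT log2 difference of St8sia1 was -0.29 with sample-quality weights (p = 0.0187, adjusted p = 0.133, limma). Without the 6 libraries it was -0.14 (p = 0.29, limma). Over the 30 rats Cmas and St8sia1 ran in opposite directions, with r = -0.55, and -0.68 over the 24 rats left without the 6 libraries.

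Etnk1, the farthest of the 9 genes after Iapp, was at 2459, 3082 and 3863 normalized counts in WT rats, 2286, 3268 and 4170 in HIP rats and 1106, 2798 and 3980 in AKO rats. The AKO minimum was 6KAH98, the next AKO rat being at 2692. Its fold was 0.891 in AKO vs. WT rats (0.699 to 1.14, p = 0.334), a log2 difference of -0.17 that was -0.017 without 6KAH98 and -0.054 without the 6 libraries, and 1.04 in HIP vs. WT rats (0.885 to 1.21, p = 0.649). In HIP vs. AKO rats the log2 difference was 0.22 (SE 0.17, p = 0.217), and 0.068 without 6KAH98. Of the 10 genes, the HIP vs. AKO difference farthest from 0 was that of Abcc9, 0.30 on the log2 scale (SE 0.24, p = 0.226), but without the 6 libraries it was -0.0087, and that of St8sia1, 0.21, was the farthest.

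**Figure D2:**
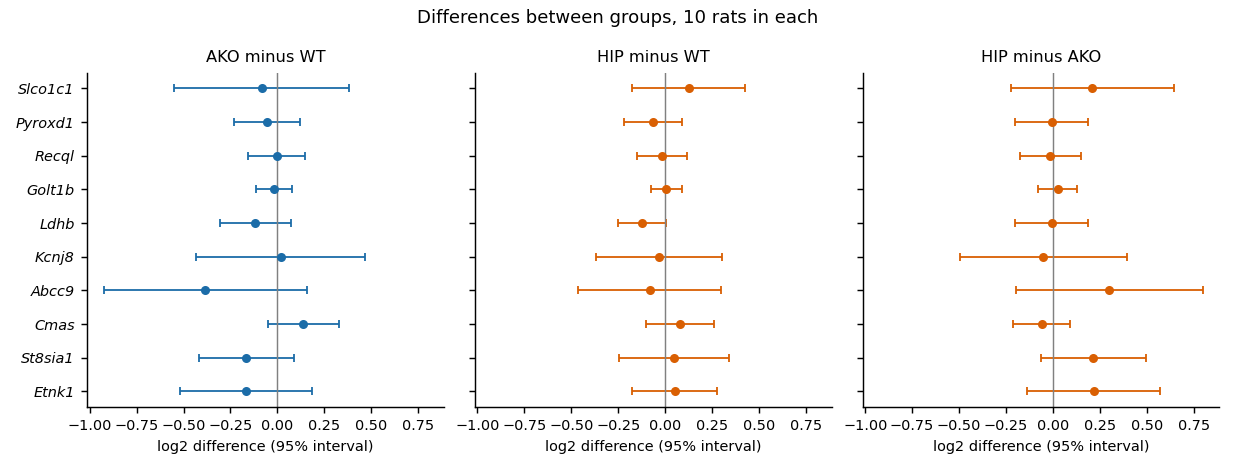
Log2 difference between groups (x axis) for each of the 10 genes, with 95% intervals from limma and 10 rats in each group, for AKO minus WT, HIP minus WT and HIP minus AKO. Every interval includes 0, and the intervals are narrowest for Golt1b and widest for Abcc9.

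The AKO rats carry 2 kinds of title, KAH in 4 rats and AKO in 6, and what the letters stand for is not given. Kcnj8 was at 89.7, 112, 113 and 247 normalized counts in KAH-titled rats and at 53.1, 65.5, 68.4, 71.9, 76.8 and 85.4 in AKO-titled rats, so the 2 sets did not overlap, which was true of 1.04% of all genes. The log2 difference was 0.89 (SE 0.27, fold 1.85, 95% interval 1.24 to 2.76), with an exact permutation p = 0.00952 (two-sided) and a limma p = 0.00569 with an adjusted p of 0.80. That permutation p is the smallest that 4 and 6 rats can give, so it only restates that the 2 sets did not overlap. Of the 10 genes, 0 were called, against 0.00587% of 17030 genes, and Kcnj8 was the only one with an unadjusted p-value under 0.05, against 4.9% of all genes. Without 7AKO19, 4KAH27 and 6KAH98 the Kcnj8 difference was 0.51 (p = 0.053, limma) and that of Abcc9, which was 0.03 with all 10 rats, was 0.88 (p = 0.00277, adjusted p = 0.491, limma). In that fit Slco1c1 was at 0.51 (p = 0.0047, adjusted p = 0.53, limma), against -0.18 with all 10 rats, and these 2 of 10 neighbours were below an unadjusted p-value of 0.05, as were 6.35% of all genes. The 2 KAH-titled rats left, 4KAH35 and 6KAH99, were above every AKO-titled rat for Kcnj8. They had the highest pericyte scores of the 30 rats, 8.18 and 7.92, and the highest endothelial scores of the AKO rats, 8.93 and 8.85, a score being the mean log2 level of a marker list. Their meninges and fibroblast scores, 9.25 and 9.18, were also the highest of the 30 rats. On the olfactory bulb list 4KAH35 stood at 7.91 and 6KAH99 at 6.68. The part of these scores in the differences was not tested.

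Along the chromosome, the 40 gene entries on each side of Iapp hold 24 genes of the table, the 10 neighbours and 14 others. None of the 14 was called in AKO vs. WT or HIP vs. WT rats, against 0.0997% and 0% of all genes. In HIP vs. WT rats 0 of 14 had an unadjusted p-value under 0.05, against 2.57% of all genes. In AKO vs. WT rats 1 of 14 did, against 9.34%. That gene, Irag2, was named after its values were seen, lies 34 entries after Iapp, and was at 120 ± 20.1 normalized counts in AKO rats against 90.3 ± 30.2 in WT (SD, n = 10 each; log2 difference 0.49, limma p = 0.0304, adjusted p = 0.48). Without the 6 libraries 3 of the 24 were below an unadjusted p-value of 0.05, as were 11.26% of all genes. They were Ldhb, Irag2 (log2 difference 0.30) and Etfrf1 (0.25), with limma adjusted p-values of 0.327, 0.422 and 0.383. The median log2 difference of the 14 was 0.06 in AKO vs. WT rats and 0.08 in HIP vs. WT rats. Over the whole table, 17 genes were called in AKO vs. WT rats, of which 11 had a chromosome in RefSeq, 1 of them was on chromosome 4, and it was Akr1b10, 1999 entries from Iapp. Of all 13799 genes tested there with a chromosome, 813 were on chromosome 4. In HIP vs. AKO rats 29 genes were called, of which 14 had a chromosome, 2 were on chromosome 4, and the nearer was Gprc5a, 92 entries from Iapp (named, like Etfrf1, after the values were seen). Of all 13823 genes tested in that comparison with a chromosome, 812 were on chromosome 4. On chromosome 4, 9.23% of 813 genes had an unadjusted p-value under 0.05 in AKO vs. WT rats, and on the other chromosomes 9.09%. In HIP vs. AKO rats the shares were 11.95% and 12.1%.

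**Figure D3:**
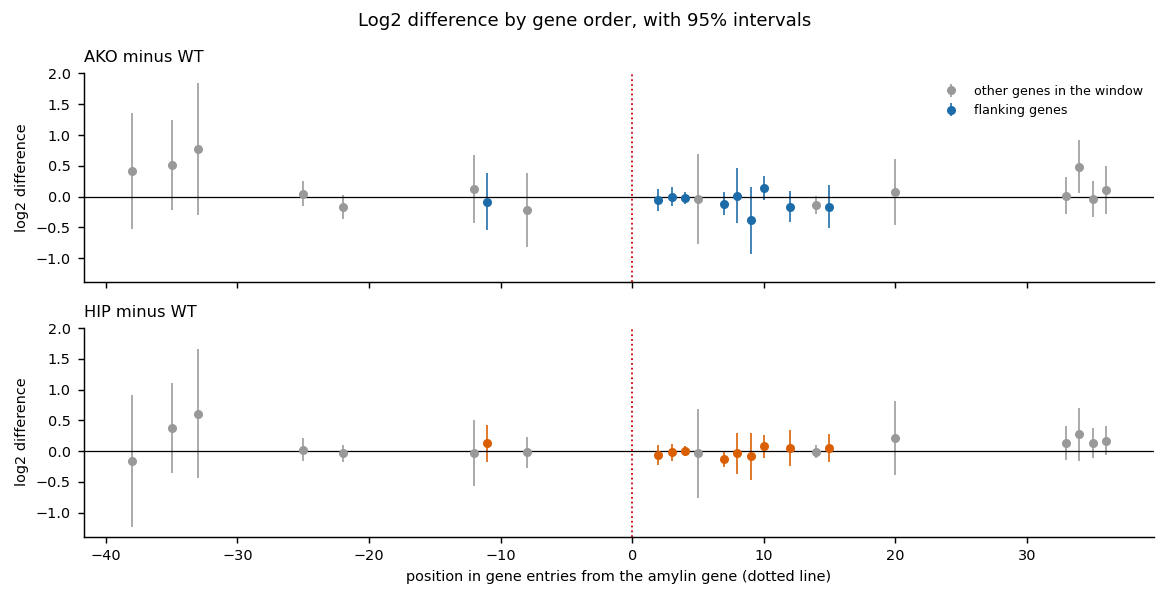
Log2 difference (y axis) against position in gene entries from Iapp (x axis, dotted line at Iapp) for the 10 neighbours (coloured) and the 14 other genes of the table within 40 entries (grey), with 95% intervals, for AKO minus WT and HIP minus WT rats. Slco1c1 lies before Iapp and the other neighbours after it, and the interval of every neighbour includes 0. Of the intervals in AKO minus WT rats, that of Irag2, 34 entries after Iapp, leaves 0.

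Lists of relatives and pathway members of these genes, called partner genes here, were also tested. Of 87 partner genes tested in AKO vs. WT rats, 0 were called, and 4 were higher and 5 lower at an unadjusted p-value under 0.05, against 9.34% of all genes in both directions. Their median log2 difference was -0.02. Of the 12 genes that handle lactate and pyruvate with Ldhb, 1 was higher and 1 lower at that threshold, and both are named here after their values were seen. Mpc1, a subunit of the mitochondrial pyruvate carrier, was at 1607 ± 153.9 normalized counts in AKO rats against 1962 ± 225 in WT (SD, n = 10 each; log2 difference -0.28, limma p = 0.000896, adjusted p = 0.169). Slc16a3, a lactate exporter, was at 36.3 ± 8.95 and 22.8 ± 10.0 (log2 difference 0.70, limma p = 0.00369, adjusted p = 0.281). Of the 18 sialic acid and ganglioside genes 0 were higher and 2 lower, of the 11 thyroid hormone genes 2 were higher and 0 lower, and of the 11 RecQ helicase and partner genes 1 was higher and 1 lower. Of the 11 Golgi transport genes 1 was lower, and of the 5 other potassium channel genes, the 12 ethanolamine and choline lipid genes and the 7 oxidoreductase genes 0 passed.

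The levels of Slco1c1 and Abcc9 followed vascular markers across rats, and no such slope was called for Kcnj8. This was fitted after the data were seen, as the slope of each gene on the mean log2 level of a marker list with the group as a term. Slco1c1 had a slope of 2.07 on the 11 endothelial genes of the table (SE 0.33, adjusted p = 0.00219, limma), and Abcc9 a slope of 2.44 (SE 0.39, adjusted p = 0.00219), over all 30 rats, against 0.942% of genes called. The 2 slopes stayed called without the 6 libraries, at 1.76 (adjusted p = 0.0030) for Slco1c1 and 2.07 (adjusted p = 0.0172) for Abcc9, against 0.306% of genes. On the 9 pericyte genes the slopes were 1.47 for Abcc9 and 1.07 for Slco1c1 (adjusted p = 0.00388 and 0.0231, against 2.94% of genes), and without the 6 libraries they were 1.29 and 0.88 and not called (adjusted p = 0.0542 and 0.135, against 0.318% of genes). The endothelial score itself was 8.39 to 8.91 in WT rats, 8.37 to 8.79 in HIP rats and 8.21 to 8.93 in AKO rats. The endothelial list includes Slco1a4, which lies between Slco1c1 and Iapp. Slco1a4 was also counted among the other genes near Iapp and among the partner genes, and its part in the slopes was not tested.

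**Figure D4:**
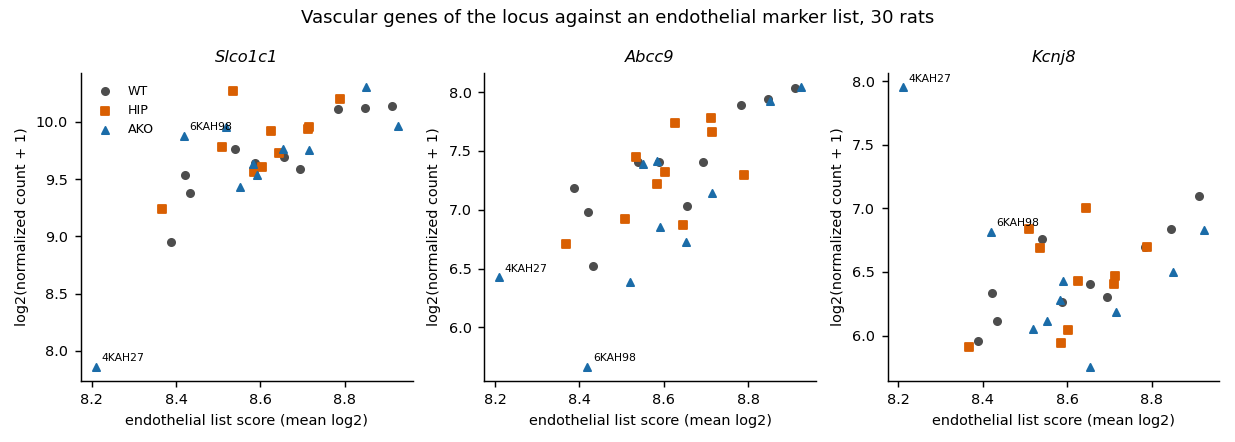
Level of Slco1c1, Abcc9 and Kcnj8 as log2(normalized count + 1) (y axis) against the mean log2 level of 11 endothelial genes (x axis) in 30 rats, coloured by group. Slco1c1 and Abcc9 rise with the score, and for Kcnj8 rat 4KAH27 lies far above the other rats at the lowest score.

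Kcnj8, though it encodes the partner subunit of Abcc9, had an endothelial slope of 0.13 (SE 0.51, adjusted p = 0.915) over all 30 rats and of 1.40 (SE 0.38, adjusted p = 0.129) without the 6 libraries. Kcnj8 and Abcc9 had r = 0.06 over 30 rats and r = 0.61 over the 24 rats. In 4KAH27 the Kcnj8 count was the highest of the 30 rats while its endothelial score was the lowest. The other called slopes were on lists on which larger shares of all genes were called. On the 9 astrocyte genes, over 30 rats, Abcc9 and Slco1c1 had slopes of 1.46 and 1.12 and Kcnj8 and Ldhb slopes of -1.21 and -0.54 (adjusted p = 0.0146, 0.0319, 0.0185 and 0.00873), against 24% of genes. Cmas had a slope of -0.055 on the cerebellum list over 30 rats (adjusted p = 0.0397, against 23.8% of genes), with 10RT43 and 12RT23 at the high end. Without the 6 libraries, Etnk1 and Slco1c1 had slopes of 0.67 and 0.91 on the neocortex list (against 22.9% of genes) and of -0.056 and -0.098 on the olfactory bulb list (against 28.1%), and Kcnj8 a slope of 0.64 on the oligodendrocyte list (against 14.2%). Of the 10 neighbours, 0 were called over 30 rats on the oligodendrocyte, microglia, neocortex, striatum and olfactory bulb lists, on which 4.65%, 7.39%, 31.2%, 2.67% and 11.8% of genes were called. Without the 6 libraries 0 were called on the astrocyte, microglia, striatum and cerebellum lists, against 10.1%, 1.46%, 0.306% and 17.2%.

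The genes most like each neighbour over the 30 rats were taken as those with the highest Pearson r among genes with a mean of at least 10, again a description over shared libraries. For Slco1c1 they were Sdr9c7 (r = 0.897), Prom1 (0.893) and Itm2a (0.879), and for Abcc9 Abcb1b (0.90), the pericyte marker Rgs5 (0.893) and Tmem229a (0.837). For Etnk1 they were Ash1l (0.954), Pikfyve (0.953) and Ipo7 (0.942), for Cmas Pfkl (0.887), Rab26 (0.879) and Klhdc8a (0.877), and for Ldhb Mtfr1l (0.854), Stard10 (0.851) and Atp5f1b (0.843), which encodes a subunit of ATP synthase. For St8sia1 they were Lgi2 (0.81), Kcna2 (0.807) and Ank3 (0.79), and for Kcnj8 they included Rchy1 (0.786) and Cdc42ep2 (0.743). The 3 steadiest genes had weaker matches, Pyroxd1 with Lap3 (0.65), Dnajc19 (0.628) and Tmco1 (0.58), Recql with Gtpbp4 (0.629), Poglut1 (0.557) and Proca1 (0.55), and Golt1b with Chst3 (0.616), Dcun1d2 (0.601) and Agpat3 (0.599). Among the 10 genes themselves the highest r over 30 rats were those of St8sia1 with Etnk1 (0.644) and Abcc9 with Etnk1 (0.64). Over these rats adjacent genes were not the most alike, Recql and Golt1b being at -0.03. The order differed over the 24 rats left without the 6 libraries. There the highest r was that of Slco1c1 with Kcnj8, 0.70 against -0.15 over 30 rats. The adjacent genes Kcnj8 and Abcc9 were at 0.61, Abcc9 and Etnk1 at 0.53, and Recql and Golt1b at 0.014.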

How the data were processed

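RNA of 10 WT, 10 HIP and 10 AKO male rats was sequenced. Per the labels and the study, RNA was extracted with an RNeasy kit, libraries were made with a SMARTER mRNA-seq kit, reads were processed in Partek (version 10.0.22.0228) with STAR (2.7.8a), on rn7 and Ensembl genes, and counts were normalized by the authors with DESeq2. The deposited values are normalized counts, a signal on a count scale that is not whole. Between 84.0% and 87.6% of values below 100 were whole multiples of 1 step (tolerance 0.1), so reads were not recovered and no count test was run, and each rat's total divided by its step estimates its depth. The precision is about 1 read. Groups came from the genotype labels. The study calls WT controls littermates of HIP rats, but the labels do not tie rats to litters, so litter was not a term and p-values measure the spread between these rats.

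Groups were compared with limma 3.58.1 in R 4.3.3 (lmFit, eBayes with trend), two-sided, on log2(normalized count + 1), without covariates, keeping genes whose mean normalized count was 1 or more among the rats compared, with Benjamini-Hochberg adjustment over all genes and a threshold of 0.05. A fold is on the scale of the normalized count + 1 and understates the change of low genes. Intervals are 95% and use limma's degrees of freedom. Permutation tests (100000 resamples, or exact for the knockout titles) and figures used Python 3.11.15, numpy 2.4.6, scipy 1.17.1, pandas 2.3.3 and matplotlib 3.10.9. The fit was tested on simulated data.

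The 10 genes, their partner lists and the marker lists were chosen with earlier results of these data known. All 10 are named in every comparison, and other genes were named if called at an adjusted p-value under 0.05 or among the 3 most alike, unless stated, and 1 of the most alike genes is not reported here. A marker score is the mean log2 level of the list's genes in the table. RefSeq on GRCr8 was used for gene order, names and upstream windows, which may differ from rn7, and 9 of the 10 genes had a window. None of the 6 genes of a pancreas islet list was matched by symbol. The alternatives changed 1 choice at a time. They were quantile normalization, sample-quality weights, rescaling by the median ratio, a robust eBayes step, a pseudocount of 5 or 0.1, the filter set at 10 or dropped, a joint fit of the 3 groups, covariates (endothelial and pericyte scores, scores of cerebellum, striatum and olfactory bulb, library number), a window of 15 entries, each kind of AKO title alone, and the omission of each rat in turn. The libraries left out were 10RT43, 10RT46, 12RT23, 7AKO19, 4KAH27 and 6KAH98.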

Additional observations from a re-analysis of the deposited data

Results flagged for a closer look

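Of 30 sets of 10 rats, 1 for each gene and group, 5 held a rat far from the other 9 of its group, and about 1 in 20 such sets would by chance, which is 1.5 of 30. The sets share libraries and are not independent, and the share of all genes with such a rat was not computed. Over all genes, 4KAH27 was the lowest or highest AKO rat in 36.7% and 6KAH98 in 51.6%. Kcnj8 stood at 246.9 normalized counts in AKO rat 4KAH27, with the other AKO rats at 53.05 to 113. Etnk1 stood at 1105.6 in AKO rat 6KAH98, with the others at 2692 to 3980. Ldhb stood at 12863.6 in the same rat, with the others at 6976 to 10093. Ldhb also stood at 11017 in WT rat 10RT44, with the others at 8837 to 9906, and St8sia1 stood at 240.6 in WT rat 10RT38, with the others at 121.6 to 179.4.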

How the results depend on the processing

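The count of 0 of 10 neighbours called held in all 108 other fits of the 4 comparisons. With sample-quality weights the share of all genes called was 5.02% in AKO vs. WT, 0% in HIP vs. WT and 6.69% in HIP vs. AKO rats. Without the 6 libraries it was 0.312%, 0% and 0.5%. At such shares a count of 0 of 10 is not particular to the neighbours. The smallest adjusted p-value of a neighbour in any of these fits was 0.0855, for Ldhb in AKO vs. WT rats with sample-quality weights (log2 difference -0.19). With those weights 5 of 10 neighbours had an unadjusted p-value under 0.05 in AKO vs. WT rats, against 23.04% of all genes. They were Ldhb, Abcc9, St8sia1, Kcnj8 and Cmas. Adjusted p-values ranged from 0.0855 to 0.9999 in AKO vs. WT rats, 0.572 to 1 in HIP vs. WT rats and 0.122 to 0.999 in HIP vs. AKO rats. Of the 30 genes listed as most alike, 12 were listed again without 10RT43, 10RT46 and 7AKO19. Without the 6 libraries only Lap3 for Pyroxd1 (r = 0.70), Mtfr1l for Ldhb (0.864) and Abcb1b for Abcc9 (0.842) were listed again. Signs changed in 84 of 1110 log2 differences, 49 of them when 1 rat was left out, and the cause was not tested. In AKO vs. WT rats, Recql was at 0.0442 with sample-quality weights, 0.017 with quantile normalization, 0.00018 with median-ratio rescaling, 0.020 with endothelial and pericyte covariates, 0.013 with region covariates, 0.043 without the 6 libraries and 0.0695 with AKO-titled rats alone. Kcnj8 was at -0.38, -0.019, -0.22 and -0.34 with weights, quantile normalization, without the 6 libraries and with AKO-titled rats alone, Slco1c1 at 0.041 without the 6 libraries, and Golt1b at 0.016 with KAH-titled rats alone. In HIP vs. WT rats, endothelial and pericyte covariates gave Recql 0.0092 and Kcnj8 0.0075, region covariates gave Golt1b -0.0028 and St8sia1 -0.0756, and library number as a covariate gave Golt1b -0.0027, St8sia1 -0.0514 and Etnk1 -0.024. In HIP vs. AKO rats, weights gave Ldhb 0.0713 and Kcnj8 0.18, region covariates gave Pyroxd1 0.0381 and Kcnj8 0.0853, leaving out 10RT43, 10RT46 and 7AKO19 gave Pyroxd1 0.0042, and leaving out the 6 libraries gave Pyroxd1 0.0708, Ldhb 0.0855, Kcnj8 0.12 and Abcc9 -0.0087. Between KAH-titled and AKO-titled rats, Abcc9 was at -0.0896 without 7AKO19, and without 7AKO19, 4KAH27 and 6KAH98 Slco1c1 was at 0.51, Ldhb at -0.22, Cmas at -0.020, St8sia1 at 0.15 and Etnk1 at 0.12. With 1 rat left out, the range in AKO vs. WT rats was -0.17 to 0.11 for Slco1c1, -0.0324 to 0.0273 for Recql and -0.15 to 0.10 for Kcnj8. In HIP vs. WT rats it was -0.0396 to 0.0082 for Recql, -0.0039 to 0.020 for Golt1b, -0.10 to 0.0349 for Kcnj8 and -0.0206 to 0.12 for St8sia1. In HIP vs. AKO rats it was -0.0497 to 0.0254 for Pyroxd1, -0.0453 to 0.014 for Recql, -0.0428 to 0.0553 for Ldhb and -0.13 to 0.11 for Kcnj8. The lowest normalized count of a neighbour in any rat was 49.8, for Abcc9 in AKO rat 6KAH98. No paired analysis was possible because the titles give no replicate number that the groups share.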
